A study of Mus musculus with 24 samples.

Results

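The genes described here are 10 members of the TGF-beta and activin pathway, which are Tgfb1, Tgfb2, Tgfb3, Tgfbr1, Tgfbr2, Ltbp2, Tgfbi, Inhba, Fst and Smad7. They were chosen by symbol, and all 10 have a row among the 14159 genes with a symbol in the deposited log2 CPM values (CPM, the count of a gene relative to the size of its library). The data are 24 bulk RNA sequencing libraries of mouse quadriceps, 3 in each of 8 groups. C57BL/6 (B6) mice and MRL/MpJ (MRL) mice, an inbred strain known for its repair of some wounds, were female and 6 to 8 weeks old, and neither strain carried a transgene or an engineered deletion. Each strain was either uninjured or had a 3 mm by 3 mm piece of quadriceps removed, a volumetric muscle loss injury. The defect received Saline (the control injury), 50 µL of decellularized ECM (a powder of porcine small intestinal submucosa in suspension) or PE (polyethylene powder, a synthetic particle). Injured muscle was collected on day 21, so each group is 1 time point and no course of the response can be read. Genes that define muscle fibres (Ckm, Acta1, Myh4, Myh2, Mb and Tnnt3) summed to between 22456 and 144619 CPM in the 24 libraries, so skeletal muscle RNA was present in all of them.

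TGF-beta ligands are made as latent complexes that are stored in the extracellular matrix, released by integrins and proteases, and read by a type II receptor (Tgfbr2) that recruits and activates a type I receptor (Tgfbr1). The receptors phosphorylate Smad2 and Smad3, which enter the nucleus with Smad4 and switch on matrix genes and Smad7, an inhibitor that closes the loop. Activins, dimers of the Inhba product, signal through their own receptors to the same Smads and are captured by follistatin (Fst). In muscle the pathway is known for fibrosis and for restraining myoblast fusion and fibre growth.

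All 10 genes are protein coding on GRCm39. Tgfb1 lies on chromosome 7 from 25386390 to 25404506, Tgfb2 on chromosome 1 from 186354985 to 186438294 and Tgfb3 on chromosome 12 from 86102756 to 86126301. Tgfbr1 lies on chromosome 4 from 47353134 to 47414931 and Tgfbr2 on chromosome 9 from 115913361 to 116004800. Ltbp2 lies on chromosome 12 from 84829986 to 84923306, Tgfbi on chromosome 13 from 56757336 to 56787375, Inhba on chromosome 13 from 16186373 to 16206206 and Fst on chromosome 13 from 114588731 to 114595521. The exons of 7 of them (Tgfb2, Tgfb3, Tgfbr1, Tgfbr2, Ltbp2, Inhba and Fst) share between 61 and 764 bases with a gene on the opposite strand, and the quantification was run without a strand option, so reads from those bases cannot be assigned to 1 gene with certainty.

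The 250 bases before the start of Tgfb1, Tgfbi and Tgfbr1 are shown because these genes rose in PE-treated B6 mice, those of Tgfbr2 because it rose in PE-treated MRL mice, and those of Tgfb2 for contrast, as a ligand that was called in no comparison of the 24 libraries. The sequences are RefSeq's, on build GRCm38.p6 of the C57BL/6J reference, and read 5′ to 3′ on the strand of the gene. Windows were searched for 7 of the 10 genes, and those of Tgfb3, Fst and Smad7 were not searched. Capitals mark the GC box GGGCGG, the TATA box, spelled TATAAA here, and the motif CAGACA, a letter pattern that Smad proteins are known to bind. Each was searched on both strands, so a GC box on the other strand appears as CCGCCC in the text. GTCTAGAC (the Smad palindrome) and TGANTCA (the AP-1 motif) were searched too and are in none of the 8 windows of these 7 genes.
Tgfb1, chr7:25686752-25687001, plus strand: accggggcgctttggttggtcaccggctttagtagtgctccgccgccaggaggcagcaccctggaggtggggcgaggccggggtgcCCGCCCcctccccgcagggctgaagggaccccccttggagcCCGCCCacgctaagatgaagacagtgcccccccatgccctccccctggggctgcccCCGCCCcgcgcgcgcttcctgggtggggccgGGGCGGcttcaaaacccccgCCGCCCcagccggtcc
Tgfbi, chr13:56609336-56609585, plus strand: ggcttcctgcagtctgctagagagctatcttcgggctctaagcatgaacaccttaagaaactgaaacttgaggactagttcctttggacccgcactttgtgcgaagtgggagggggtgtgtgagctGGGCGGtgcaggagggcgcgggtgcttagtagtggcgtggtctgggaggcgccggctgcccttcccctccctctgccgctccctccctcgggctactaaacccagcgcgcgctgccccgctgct
Tgfbr1, chr4:47352972-47353221, plus strand: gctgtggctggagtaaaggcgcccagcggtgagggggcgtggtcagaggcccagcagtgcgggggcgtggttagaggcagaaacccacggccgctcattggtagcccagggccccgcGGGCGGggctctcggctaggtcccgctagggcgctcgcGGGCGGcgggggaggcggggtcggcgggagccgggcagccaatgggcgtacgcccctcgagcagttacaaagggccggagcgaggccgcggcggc
Tgfbr2, chr9:116175364-116175613, minus strand: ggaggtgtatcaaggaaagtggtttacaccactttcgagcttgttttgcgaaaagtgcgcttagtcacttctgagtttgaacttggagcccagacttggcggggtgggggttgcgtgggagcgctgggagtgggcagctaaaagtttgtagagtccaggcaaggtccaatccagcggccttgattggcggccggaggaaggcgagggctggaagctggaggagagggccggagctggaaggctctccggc
Tgfb2, chr1:186705990-186706239, minus strand: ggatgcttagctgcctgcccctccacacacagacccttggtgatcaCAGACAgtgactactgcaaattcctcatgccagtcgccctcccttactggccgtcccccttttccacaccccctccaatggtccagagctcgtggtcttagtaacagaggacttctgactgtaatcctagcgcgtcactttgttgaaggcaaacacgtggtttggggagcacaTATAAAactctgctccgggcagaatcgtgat
The Tgfb1 window holds GGGCGG at 5 places and has a GC content of 75.2%, and the first Tgfbr1 window holds it at 2 places with 74.8%. The Tgfbi window holds GGGCGG once, and the Tgfbr2 window holds none of the searched motifs. The Tgfb2 window is the only one of these 5 with TATAAA, which begins 31 bases before the start, and with CAGACA. Of the searched windows not shown, the Ltbp2 window holds GGGCGG at 2 places, as many as the first Tgfbr1 window. The second Tgfbr1 window holds CAGACA, beginning 203 bases before its start, and the Inhba window holds TATAAA. Of 32851 windows of the same length, GGGCGG is in 32.7%, TATAAA in 12.4%, CAGACA in 17.1%, TGANTCA in 6.75% and GTCTAGAC in 0.167%, and the median GC content is 52.4%. These matches describe the letters of the reference only. The MRL sequence was not analysed here.

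A count of 0 stands at a log2 CPM of -3.65, and none of the 10 genes was at 0 in any library. At the mean effective library size of 25149682 reads, a count of 0 would allow up to 3 counts, or 0.119 CPM. The lowest values of the 10 genes were -0.42 for Inhba and -0.28 for Fst, so counting error is greatest for these genes. Within their group, a pair of libraries stood apart, though not by the same measure. Replicate 2 of PE-treated MRL mice correlated with its group at a mean r of 0.819 across genes, where other libraries reached 0.889 to 0.968. Its macrophage markers (7 of 7 in the matrix) summed to 1099 CPM against 200 and 169 in the others of its group, its fibroblast markers to 12639 against 2108 and 1522, and its fibre markers to 22456 against at least 86903. Replicate 2 of saline-treated B6 mice had regenerating muscle markers (Myog, Myh3, Myh8 and Myod1) of 52.2 CPM, against 1000 and 1084 in its group and 27.9 to 53.7 in uninjured B6 mice. By correlation this library did not stand apart, at a mean r of 0.927 against 0.943 and 0.920 in its group. In saline-treated MRL mice the same markers summed to 285, 86.5 and 63.9 CPM, against 34.3 to 64.0 uninjured, and none was set apart. The differences described for PE-treated MRL mice and saline-treated B6 mice are given with and without replicate 2 of their group.

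**Figure D1:**
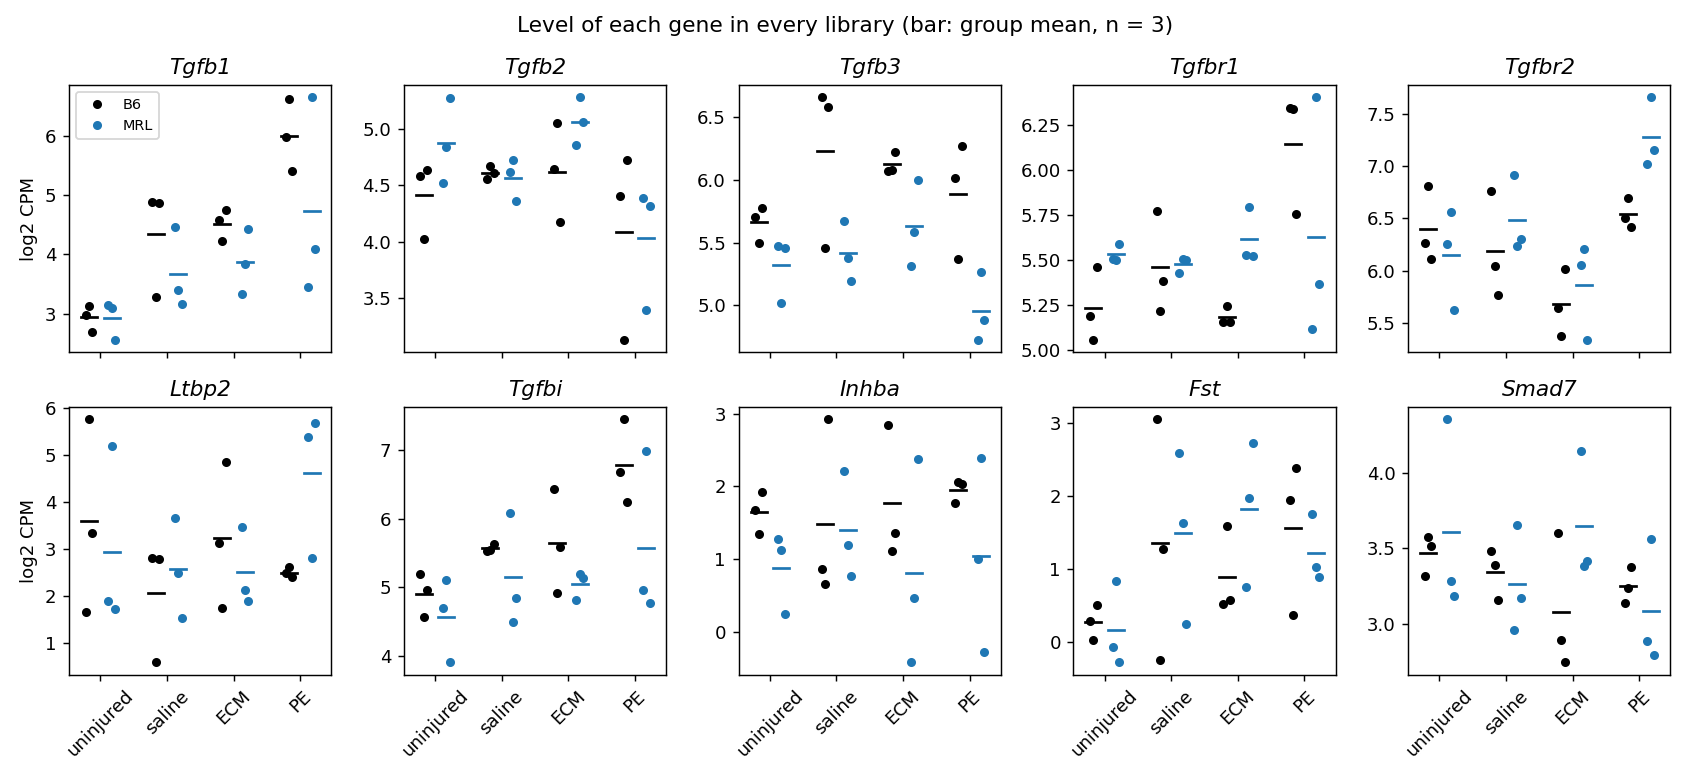
Log2 CPM (vertical axes, each with its own scale) of the 10 genes in every library by treatment, B6 in black and MRL in blue; points are libraries and bars the mean of 3. Tgfb1 in PE-treated B6 mice lies between 5.40 and 6.61, above every uninjured library, and 1 PE-treated MRL library reaches 6.65.

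Per kilobase of transcript, Tgfb3 was the most abundant of the 3 TGF-beta ligands in uninjured muscle, at 12.2 ± 1.21 CPM per kb in B6 mice and 9.68 ± 1.64 in MRL mice (SD, n = 3 here and below). Tgfb2 followed at 4.14 ± 0.903 and 5.73 ± 1.51, and Tgfb1 was at 3.45 ± 0.527 and 3.47 ± 0.741. In B6 mice the levels of Tgfb1 and Tgfb2 were within their spread of each other. In PE-treated B6 mice the order had changed, with Tgfb1 at 30.6 ± 12.6, Tgfb3 at 14.7 ± 4.42 and Tgfb2 at 3.58 ± 1.73. Of the summed ligand level, Tgfb1 made up 17.6% ± 4.08 in uninjured B6 mice, 28.6% ± 5.66 after the control injury, 32.4% ± 4.62 with ECM and 61.0% ± 17.4 with PE. The sum itself went from 19.8 ± 1.66 to 48.9 ± 6.51 CPM per kb between uninjured and PE-treated B6 mice. In MRL mice the share of Tgfb1 was 18.7% ± 5.19 without injury and 32.1%, 80.1% and 41.2% in the 3 PE-treated libraries. The ranges of uninjured and PE-treated mice did not overlap in either strain, though with 3 libraries on each side the smallest p of an exact permutation test is 0.10.

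**Figure D2:**
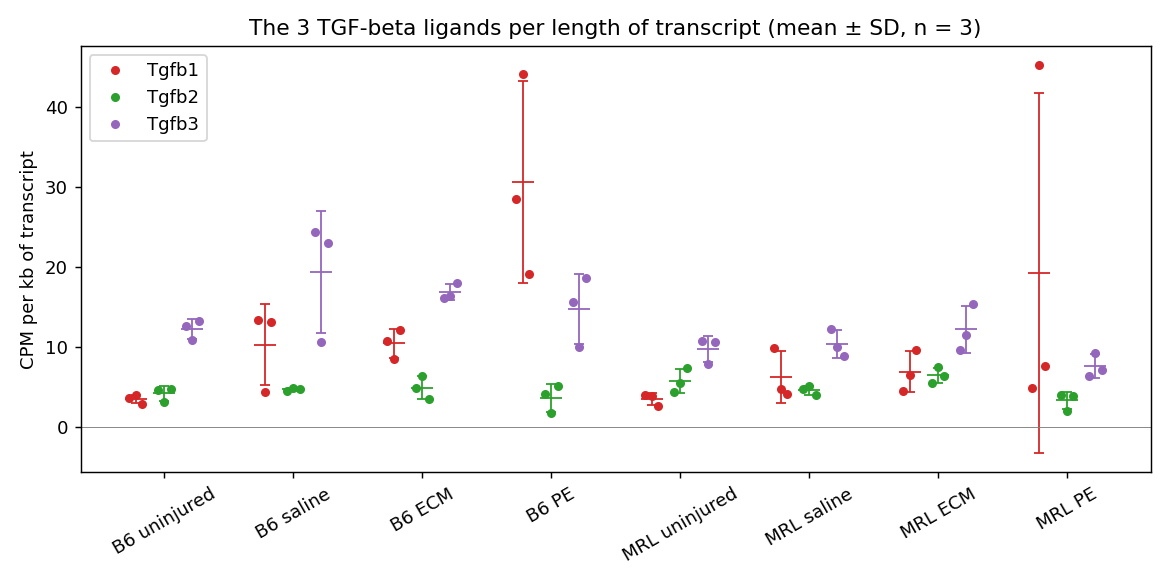
CPM per kilobase of transcript (vertical axis, linear) of Tgfb1, Tgfb2 and Tgfb3 in the 8 groups; points are libraries, dashes the mean and bars ± SD (n = 3). Tgfb3 leads in uninjured muscle of both strains, and Tgfb1 leads in PE-treated B6 mice at a mean of 30.6 against 14.7 for Tgfb3.

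Tgfb1, the ligand most tied to inflammation and scarring, rose in PE-treated B6 mice. Its log2 CPM was 2.99, 3.13 and 2.69 in uninjured B6 mice and 5.98, 6.61 and 5.40 with PE. Every PE-treated library lay above every uninjured one, an 8.35-fold difference (log2 fold change 3.06, SE 0.60, limma adjusted p = 0.00344). This call held under every alternative run, each left-out library included. Groups were compared with limma over all 24 libraries, and calls were made at an adjusted p under 0.05 over all 14159 genes. In this comparison 24.8% of all genes were called, 14.7% in the higher direction, and 3 of the 10 members, Tgfb1, Tgfbi and Tgfbr1, were called, all higher. At an unadjusted p under 0.05 by limma there were 3 members, against 40.9% of all genes. The median log2 fold change over the 10 was 0.27, against 0.02 over all genes.

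The control injury and ECM gave intermediate Tgfb1 levels in B6 mice. They were 4.89, 3.28 and 4.86 with Saline and 4.57, 4.23 and 4.74 with ECM. Both groups lay above the uninjured libraries without overlap, but neither difference passed the test (log2 fold changes 1.41, SE 0.60, limma adjusted p = 0.369, and 1.58, SE 0.60, limma adjusted p = 0.207). The low Saline value is that of replicate 2, which stood apart. PE-treated B6 mice lay above both injured groups without overlap, again short of the threshold (1.65 against Saline, SE 0.60, limma adjusted p = 0.0998, and 1.48 against ECM, SE 0.60, limma adjusted p = 0.180). Without replicate 2 of the Saline group alone, the difference was 1.12 between PE and Saline (limma adjusted p = 0.332) and 1.94 between Saline and uninjured muscle (limma adjusted p = 0.0894). Leaving out both libraries that stood apart, the limma calls included Tgfb1 for Saline against uninjured (1.94, adjusted p = 0.00793), ECM against uninjured (1.58, adjusted p = 0.0148) and PE against ECM (1.48, adjusted p = 0.01). Over all genes the share called was then 10.1%, 6.15% and 12.9%. The comparisons of ECM with uninjured and of PE with ECM hold neither left-out library, and their fold changes did not move. The spread in the test is estimated over all groups, so it changed for these comparisons too. This exclusion was chosen after seeing the data.

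In MRL mice Tgfb1 was 3.15, 3.10 and 2.56 without injury, 4.46, 3.40 and 3.17 with Saline, 3.33, 3.84 and 4.42 with ECM, and 3.44, 6.65 and 4.08 with PE. PE-treated libraries were all above uninjured ones, by 1.79 on the log2 scale (SE 0.60, limma adjusted p = 0.0572), which did not pass. That difference rested on replicate 2, without which it was 0.83 (SE 0.47, limma adjusted p = 0.332). The call was gained instead when replicate 1 (2.43, limma adjusted p = 0.0325) or replicate 3 (2.11, limma adjusted p = 0.033) was left out.

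Tgfb2, an isoform known for its part in development of the heart and neural crest derivatives, passed the test in no comparison. It ranged from 3.13 to 5.28 on the log2 scale over the 24 libraries, and the lowest values were those of replicate 2 in both PE-treated groups, at 3.13 in B6 and 3.39 in MRL mice. PE-treated MRL mice lay below uninjured (by -0.84, SE 0.34, limma adjusted p = 0.0894) and below ECM-treated MRL mice (by -1.03, SE 0.34, limma adjusted p = 0.0809), without overlap and without passing the test. Without replicate 2 the differences were -0.52 and -0.71.

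Tgfb3 was 5.71, 5.50 and 5.78 in uninjured B6 mice and 6.66, 5.45 and 6.58 after the control injury. The middle value belongs to the library with regenerating muscle markers at the uninjured level. The difference was 0.57 (SE 0.28, limma adjusted p = 0.411), and without that library it was 0.96 (SE 0.25, limma adjusted p = 0.0403), where 3.22% of all genes were called. Tgfb3 had a Pearson's r of 0.85 with the markers by which that library was set apart, so the exclusion is not independent of Tgfb3. ECM-treated B6 mice were at 6.07, 6.08 and 6.22 and PE-treated B6 mice at 6.02, 5.37 and 6.28. The MRL libraries were 5.47, 5.02 and 5.46 uninjured, 5.67, 5.38 and 5.20 with Saline, 5.31, 5.58 and 6.00 with ECM and 4.72, 5.26 and 4.88 with PE.

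Inhba, the activin A subunit, was among the least abundant of the 10, at 0.515 ± 0.106 CPM per kb in uninjured B6 mice and 0.308 ± 0.109 in uninjured MRL mice. It ranged from -0.42 to 2.92 on the log2 scale, and its groups overlapped between treatments within each strain. In ECM-treated MRL mice the 3 libraries were -0.42, 0.46 and 2.37, a spread wider than any difference between group means. No comparison of Inhba passed the test by limma.

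Tgfbr1, the type I receptor, rose in PE-treated B6 mice. It was 5.19, 5.06 and 5.46 without injury and 6.34, 6.34 and 5.76 with PE, a 1.88-fold difference without overlap (log2 fold change 0.91, SE 0.24, limma adjusted p = 0.0143). The call was lost without replicate 1 of PE-treated B6 mice (0.81, limma adjusted p = 0.0517) or replicate 2 (0.82, limma adjusted p = 0.0847). The Saline libraries were 5.78, 5.22 and 5.39 and the ECM libraries 5.16, 5.25 and 5.16. Between PE and ECM the difference in B6 mice was 0.96 (SE 0.24, limma adjusted p = 0.0822), and between PE and Saline 0.69 (SE 0.24, limma adjusted p = 0.0885), or 0.57 (limma adjusted p = 0.244) without replicate 2 of the Saline group. With PE against Saline, limma called 0 of the 10 members against 5.97% of all genes, and 3 had an unadjusted p under 0.05 against 25.2%. For PE against ECM it called 0 of 10 against 0.226%, with 4 against 20.6% unadjusted. MRL mice held Tgfbr1 at 5.51, 5.50 and 5.59 uninjured, 5.43, 5.51 and 5.50 with Saline, 5.53, 5.80 and 5.52 with ECM and 5.12, 6.41 and 5.37 with PE. There the PE-treated group straddled the uninjured one, with replicate 2 above and the other pair below.

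Tgfbr2, the type II receptor that binds the ligand, rose in PE-treated MRL mice. They were at 7.02, 7.66 and 7.16 against 6.25, 6.56 and 5.63 uninjured, a 2.19-fold difference without overlap (log2 fold change 1.13, SE 0.30, limma adjusted p = 0.0448). It was the 1 member called in this comparison, in which 9.73% of all genes were called, and 3 members had an unadjusted p under 0.05 against 36.1% of all genes. The call is close to the threshold. It was lost without replicate 2 of PE-treated MRL mice (0.94, limma adjusted p = 0.194), without replicate 1 of uninjured MRL mice (1.18, limma adjusted p = 0.109), without replicate 3 of uninjured MRL mice (0.87, limma adjusted p = 0.188), and when only the 6 libraries compared were fitted (limma adjusted p = 0.24). Saline-treated MRL mice were at 6.91, 6.23 and 6.30 and ECM-treated MRL mice at 6.06, 6.21 and 5.34. PE-treated MRL mice lay above both without overlap, by 0.80 against Saline (SE 0.30, limma adjusted p = 0.146) and 1.41 against ECM (SE 0.30, limma adjusted p = 0.0558). Without replicate 2 of the PE group these differences were 0.61 (limma adjusted p = 0.439) and 1.22 (limma adjusted p = 0.104). In these comparisons limma called 0 members and 0.0% of all genes, with 1 and 3 members at an unadjusted p under 0.05 against 23.3% and 28.4% of all genes. In B6 mice Tgfbr2 was 6.27, 6.81 and 6.11 uninjured and 6.51, 6.70 and 6.42 with PE, which overlapped. ECM-treated B6 mice were the lowest at 5.65, 5.38 and 6.02, below the uninjured libraries by -0.71 (SE 0.30, limma adjusted p = 0.252). The PE-treated B6 libraries, like those of MRL mice, lay above the ECM libraries of their strain without overlap. In that B6 comparison limma called 0 members and 0.226% of all genes.

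**Figure D3:**
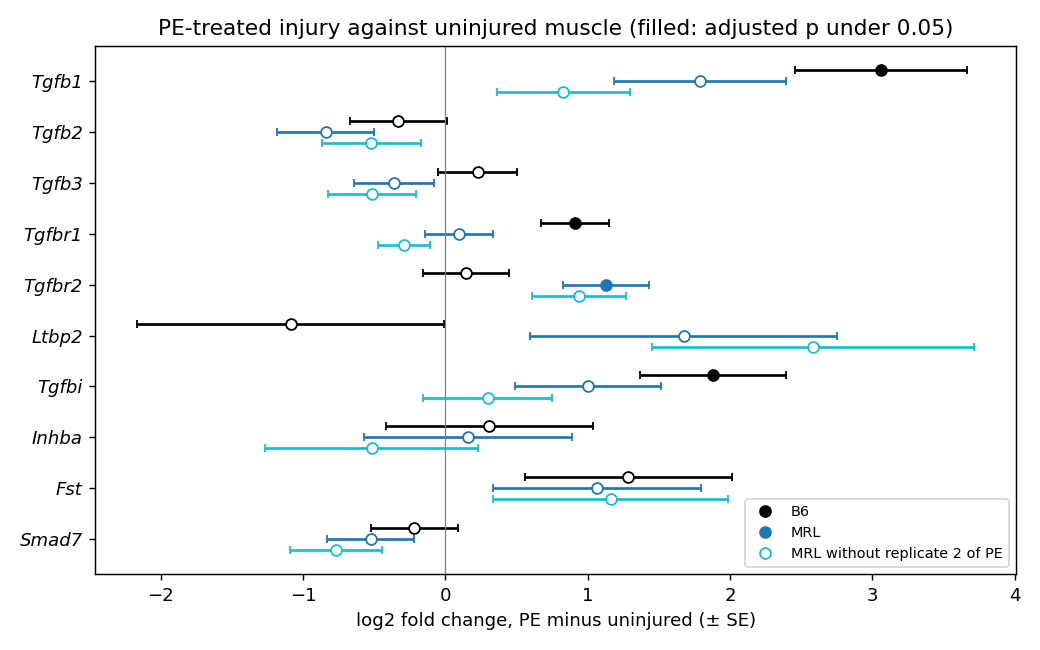
Log2 fold change ± SE (horizontal axis) of the 10 genes between PE-treated and uninjured muscle in B6 mice (black), MRL mice (blue) and MRL mice without replicate 2 of the PE group (cyan); filled points passed the test. Tgfb1, Tgfbr1 and Tgfbi are filled in B6 mice and Tgfbr2 in MRL mice, and without the replicate none is filled.

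Tgfbi, a secreted matrix protein named for its induction by TGF-beta, rose with PE in B6 mice beside Tgfb1. It was 5.20, 4.56 and 4.95 uninjured, 5.53, 5.54 and 5.63 with Saline, 6.43, 4.92 and 5.58 with ECM and 6.68, 7.44 and 6.24 with PE. The PE libraries lay above the uninjured and Saline libraries, and 1 ECM library reached into their range. Against uninjured muscle the difference was 3.69-fold (log2 fold change 1.88, SE 0.51, limma adjusted p = 0.0163), and the call was lost without replicate 2 of PE-treated B6 mice (1.55, limma adjusted p = 0.103). Against Saline it was 1.22 (SE 0.51, limma adjusted p = 0.146), or 1.21 without replicate 2 of that group, and against ECM 1.14 (SE 0.51, limma adjusted p = 0.218). Per kilobase Tgfbi was the most abundant of the 10 in PE-treated B6 mice, at 42.7 ± 18.6 CPM, within its spread of Tgfb1. In MRL mice it was 4.69, 5.11 and 3.90 uninjured and 4.96, 6.98 and 4.77 with PE, so that 1 PE library stood above and the other pair lay inside the uninjured range.

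Ltbp2, a matrix protein of the latent TGF-beta binding protein family, varied more between libraries of a group than any other member. Its median SD within a group was 1.42 on the log2 scale, against 0.30 for the median gene. In uninjured B6 mice it was 1.67, 5.75 and 3.33, and in uninjured MRL mice 1.90, 5.20 and 1.73. PE-treated MRL mice were at 5.37, 2.80 and 5.67, and PE-treated B6 mice at 2.48, 2.61 and 2.40. The groups of the strains did not overlap with PE, but the difference of 2.12 had an SE of 1.08 (limma adjusted p = 0.293). Without replicate 2 of the MRL group it was 3.03 (limma adjusted p = 0.0583). Ltbp2 levels went with the markers of adipocytes (Adipoq, Plin1, Cidec, Lep and Retn, 5 of 5 in the matrix). The 5 libraries with the highest adipocyte sums, from 581 to 1818 CPM, were also the 5 highest for Ltbp2, and they belong to 4 groups. Across the 24 libraries Pearson's r was 0.73, a description over libraries of 8 groups, and it was 0.78 without the pair that stood apart. The part of fat in the Ltbp2 values was not tested.

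Fst, the activin-binding protein made by regenerating fibres and other cells, was low, at 0.604 ± 0.106 CPM per kb in uninjured B6 mice and 0.584 ± 0.274 in uninjured MRL mice. It was 0.29, 0.03 and 0.50 on the log2 scale in uninjured B6 mice and 3.05, -0.24 and 1.28 with Saline, where the lowest value is again replicate 2. The largest difference by mean was in ECM-treated MRL mice, at 0.74, 1.97 and 2.73 against -0.08, 0.83 and -0.28 uninjured (1.66, SE 0.73, limma adjusted p = 1). PE-treated mice were at 1.94, 0.36 and 2.37 in B6 and 1.75, 1.03 and 0.88 in MRL. Fst passed the test in no comparison.

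Smad7, the inhibitory Smad that TGF-beta itself induces, lies on chromosome 18 from 75500374 to 75529006 and was the steadiest of the 10 in group means, which lay between 3.08 and 3.65 in all 8 groups. Its 24 libraries ranged from 2.74 in ECM-treated B6 mice to 4.36 in uninjured MRL mice. In PE-treated B6 mice, where Tgfb1 rose 8.35-fold, Smad7 was 3.14, 3.24 and 3.37 against 3.32, 3.57 and 3.52 uninjured. These groups overlapped, and the difference was -0.22 with an interval of -0.86 to 0.42. With libraries scaled to equal totals, which moved the median gene by 0.41 in this comparison, the difference had the other sign (0.19). Smad7 passed the test in no comparison.

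Between strains, 0 of the 10 members were called by limma in uninjured, Saline-, ECM- or PE-treated mice, where 2.6%, 2.51%, 2.66% and 3.35% of all genes were called. At an unadjusted p under 0.05 there were 0, 1, 0 and 5 members, against 10.9%, 13.3%, 13.4% and 19.1% of all genes. In uninjured muscle the smallest adjusted p among the members was 0.723. With Saline, Tgfb3 was lower in MRL mice by -0.82 (SE 0.28, limma adjusted p = 0.173), and by -1.21 (SE 0.25, limma adjusted p = 0.00738) once replicate 2 of that B6 group was left out, where 4.33% of all genes were called. That library was set apart by its regenerating muscle markers, with which Tgfb3 had a Pearson's r of 0.85 over the 24 libraries. Its exclusion is therefore not independent of Tgfb3. Saline-treated MRL libraries with these markers at 86.5 and 63.9 CPM were kept. With PE, Tgfb3 was lower in all 3 MRL libraries than in any B6 library, by -0.93 (SE 0.28, limma adjusted p = 0.0739). The other 4 with a small unadjusted p were Tgfb1 (-1.27), Tgfbi (-1.21) and Tgfbr1 (-0.52), lower in MRL mice, and Tgfbr2 (0.74), higher in MRL mice (limma adjusted p = 0.256, 0.204, 0.250 and 0.188).

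The PE comparison of the strains turned on replicate 2 of the MRL mice. Without it, the difference of Tgfbr2 was 0.55 (limma adjusted p = 0.235) and 4 members were called lower in MRL mice, where 24.6% of all genes were called. These were Tgfb1 (-2.24, SE 0.47, limma adjusted p = 0.00199), Tgfb3 (-1.09, SE 0.31, limma adjusted p = 0.0146), Tgfbr1 (-0.91, SE 0.18, limma adjusted p = 0.00146) and Tgfbi (-1.92, SE 0.45, limma adjusted p = 0.00471). The strain difference of the response to PE, MRL change minus B6 change against uninjured muscle, was -1.27 for Tgfb1 (SE 0.85, limma adjusted p = 0.624), -0.82 for Tgfbr1 (SE 0.34, limma adjusted p = 0.363) and 0.99 for Tgfbr2 (SE 0.43, limma adjusted p = 0.382). By limma it was called for 0 of 10 members and 0.0212% of all genes, with 2 members at an unadjusted p under 0.05 against 11.7% of all genes. Without replicate 2 that of Tgfbr2 was 0.79 (limma adjusted p = 0.289), and it was called for Tgfb1 (-2.23, SE 0.63, limma adjusted p = 0.0307) and Tgfbr1 (-1.20, SE 0.24, limma adjusted p = 0.00547), against 9.56% of all genes. The strain difference against Saline (-0.54) and against ECM (-0.95) was then called for Tgfbr1 too (-0.93, limma adjusted p = 0.0362, and -1.34, limma adjusted p = 0.011), where 4.41% and 1.9% of all genes were called. In the remaining comparisons of 2 groups, limma called 0 members. For Saline against uninjured 1 member in B6 and 0 in MRL mice had an unadjusted p under 0.05, for ECM against uninjured 2 and 1, and for ECM against Saline 0 and 0. The shares of all genes at that unadjusted p were 12.4% and 3.1%, 16.8% and 3.8%, and 3.99% and 3.55%. At the adjusted p, of all genes 0.0%, 0.424% and 0.0283% were called in these comparisons in B6 mice and 0.0%, 0.0141% and 0.00706% in MRL mice. The strain difference of the other 5 responses was called by limma for 0 members and for 0.0% to 0.00706% of all genes, and 1 member, Tgfbr1 between PE and ECM, had an unadjusted p under 0.05, where 3.69% of all genes did.

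The genes around the members were described with lists of the pathway by role, 83 genes of 86 listed being in the matrix. Between PE-treated and uninjured B6 mice 22 of the 83 were called by limma, or 26.5%, close to the 24.8% over all genes, 16 higher and 6 lower. With libraries scaled to equal totals 23 were called higher and 3 lower, and of the calls over all genes 87.2% were higher, against 59.5% as deposited. The count went from 22 to between 3 and 19 as each library was left out, the lowest without replicate 2 of PE-treated B6 mice, and it was 9, 11 and 12 without replicate 1 or 3 of the uninjured mice or replicate 1 of the PE-treated mice. With all 24 libraries, 14.7% of all genes were called higher, a share against which no list by role was tested. Of 20 target genes, 7 rose and 0 fell, with a median log2 fold change of 0.87. They include Timp1, an inhibitor of matrix proteases (4.0, limma adjusted p = 0.0117), Col3a1 (2.54, limma adjusted p = 0.0119) and Col1a1 (2.45, limma adjusted p = 0.0243), which encode fibrillar collagens. Latency and activation genes rose in 4 of 12, among them Fbn2, a fibrillin that anchors latent complexes (3.93, limma adjusted p = 0.0347), and Nrros (3.15, limma adjusted p = 0.0025) and Lrrc32 (2.78, limma adjusted p = 0.0105), which hold latent TGF-beta on the surface of myeloid cells and of regulatory T cells and platelets.

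Of 14 other ligands, Gdf15, a stress-induced cytokine, rose (4.0, limma adjusted p = 0.00327), Bmp6 fell (-1.85, limma adjusted p = 0.00445) and Mstn, the myostatin gene that restrains muscle growth, fell (-1.54, limma adjusted p = 0.0356), with 4 called in all. Of 7 Smad genes, Smad3, the signal-transducing Smad of the pathway, was the 1 called and fell, from 7.06, 7.38 and 7.10 to 6.20, 5.61 and 6.41 (-1.11, limma adjusted p = 0.0133). Of 10 intracellular regulators 2 rose and 3 fell (Smurf2, Zfyve9 and Ppm1a, none of them called with equal totals), with Tgif1, a corepressor of Smad target genes, rising furthest (2.68, limma adjusted p = 0.00947). None of 11 other receptors was called in B6 mice by limma. Over all genes 24.8% were called in this comparison, and these lists were not tested against that share. Against Saline in B6 mice 2 of the 83 were called, or 2.41% against 5.97% of all genes, and these were Nrros (2.52, limma adjusted p = 0.0231) and Thbs1 (1.78, limma adjusted p = 0.0385). Neither was called without replicate 2 of the Saline group (2.59, limma adjusted p = 0.072, and 1.25, limma adjusted p = 0.161).

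In PE-treated MRL mice 7 of the 83 were called against uninjured muscle, or 8.43%, against 9.73% of all genes, 4 higher and 3 lower. With equal totals 9 were called higher and 1 lower, and of the calls over all genes 94.0% were higher, against 61.1% as deposited. Smad3 fell there too, from 7.27, 7.16 and 7.32 to 6.77, 5.42 and 6.69 (-0.96, limma adjusted p = 0.0474, and -0.55, limma adjusted p = 0.074, with equal totals), and Nrros (2.26, limma adjusted p = 0.0448) and Postn, a matricellular protein (2.46, limma adjusted p = 0.0476), rose. Lox, a collagen crosslinking enzyme (1.90, limma adjusted p = 0.0483), and Tgfbr3, the betaglycan coreceptor (1.10, limma adjusted p = 0.0448), rose, while Itgb6, part of an integrin that activates TGF-beta (-1.71, limma adjusted p = 0.0448), and Bmpr1b (-1.27, limma adjusted p = 0.0481) fell, the latter not called with equal totals (-0.88, limma adjusted p = 0.0733). Without replicate 2 of the PE-treated MRL mice none of these 7 was called by limma, each still having an unadjusted p under 0.05. The log2 fold changes were then -0.52 for Smad3, 1.45 for Nrros, 1.64 for Postn, 1.26 for Lox, 1.25 for Tgfbr3, -1.32 for Itgb6 and -0.71 for Bmpr1b, with adjusted p between 0.182 and 0.257. The count was also 0 without replicate 1 or 3 of the uninjured MRL mice, and 19 without replicate 1 or 3 of the PE-treated MRL mice.

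**Figure D4:**
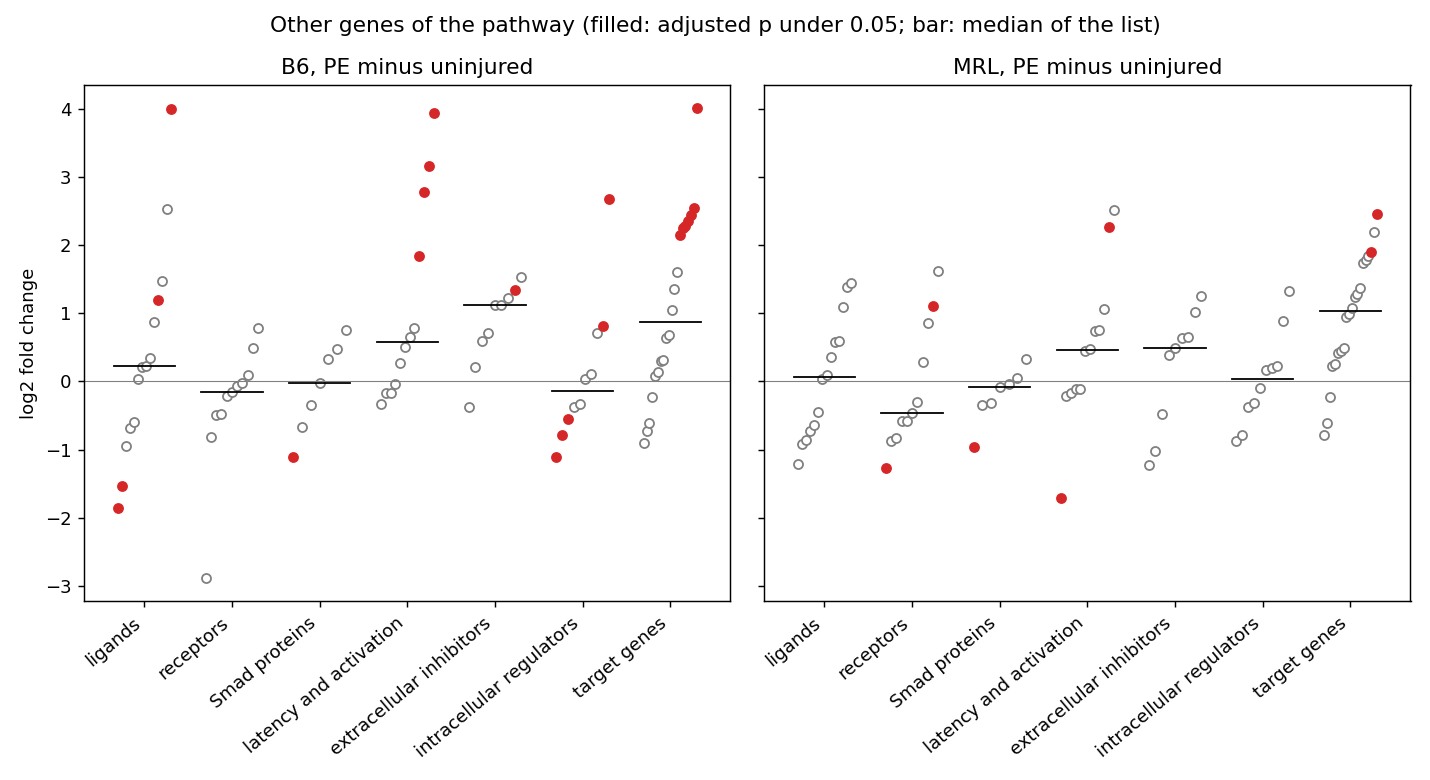
Log2 fold change between PE-treated and uninjured muscle (vertical axis) of the 83 other pathway genes by list, in B6 mice (left) and MRL mice (right); each point is a gene, filled where it passed the test, and bars are list medians. The 7 filled target genes in B6 mice are all above 0, and 2 are filled in MRL mice.

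Markers of other cells moved with these results. The macrophage markers summed to 91.4 to 136 CPM in uninjured B6 mice, 169 to 198 with Saline, 162 to 660 with ECM and 483 to 1448 with PE, and to 54.0 to 124, 76.0 to 247, 132 to 168 and 169 to 1099 in MRL mice. The fibroblast markers, among them Pdgfra and the Col1a1 and Col3a1 genes named above, went from 899 to 1315 CPM in uninjured B6 mice to 3929 to 7369 with PE. Markers of neutrophils, 4 of 5 in the matrix, were at 1.00 to 3.08 CPM in uninjured and 16.3 to 127 in PE-treated B6 mice. Muscle fibre markers were lower with PE, at 37790 to 80357 CPM against 106613 to 130453 in uninjured B6 mice and at 22456 to 88967 against 104130 to 144619 in MRL mice. Across the 24 libraries, as a description, Tgfb1 had a Pearson's r of 0.94 with the fibroblast sum and 0.89 with the macrophage sum, and Tgfbi of 0.96 with the macrophage sum. Tgfb2 had its highest r with smooth muscle markers (0.88) and an r of 0.82 with muscle fibres. Tgfb3 had its highest r with regenerating muscle markers (0.85) and 0.79 with tendon markers, with Spearman's rho at 0.73 and 0.78. The highest r was with tendon markers for Inhba (0.70) and with regenerating muscle markers for Fst (0.61). Tgfbr1 had an r of 0.71 with the neutrophil sum but a Spearman's rho of 0.17, Tgfbr2 had -0.65 with smooth muscle, -0.59 with muscle fibres and 0.44 with adipocytes, and Smad7 had r between -0.25 and 0.16 with the 13 lists. Tgfb1 had -0.83 with muscle fibres. Without the pair of libraries that stood apart, Tgfb1 had 0.92 with the fibroblast sum and 0.88 with the macrophage sum, Tgfbi 0.95 with the macrophage sum, Tgfbr1 0.67 with neutrophils, Tgfbr2 -0.47 with smooth muscle, -0.37 with muscle fibres and 0.57 with adipocytes, and Smad7 between -0.37 and 0.36. In bulk muscle a change in the number of cells of a type and a change in RNA per cell cannot be told apart, and the part of these markers in the results was not tested.

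**Figure D5:**
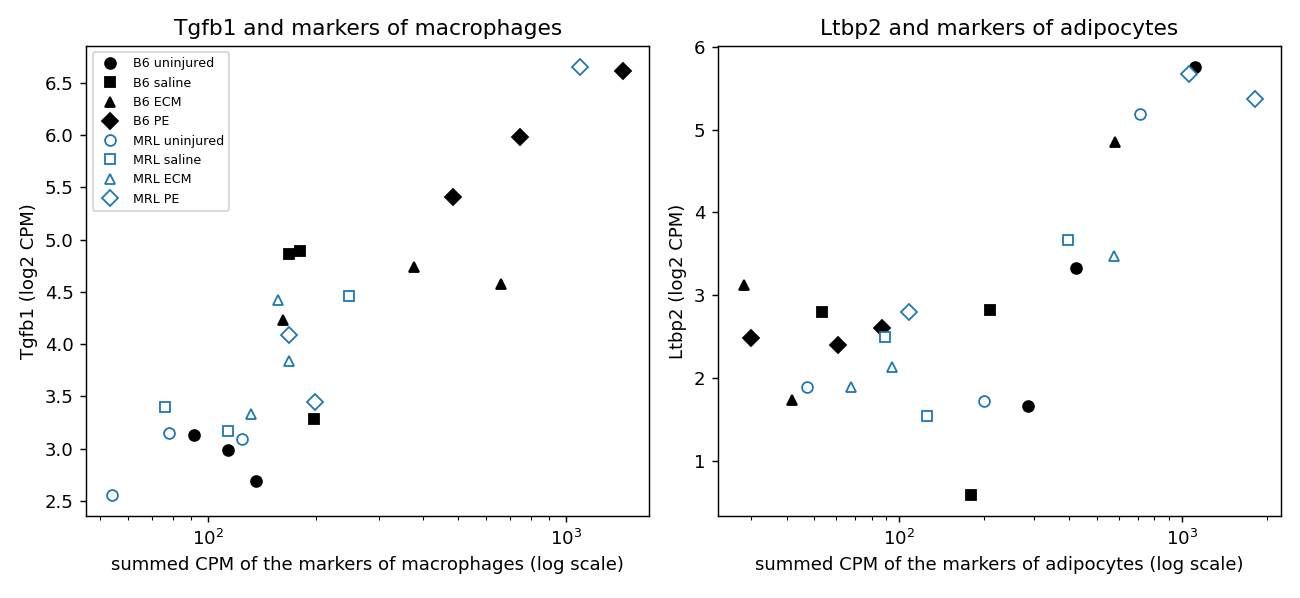
Left, Tgfb1 (log2 CPM) against the summed CPM of 7 macrophage markers; right, Ltbp2 (log2 CPM) against the summed CPM of 5 adipocyte markers; horizontal axes are logarithmic, points are the 24 libraries, filled for B6 and open for MRL. The libraries with macrophage sums of 1099 and 1448 have Tgfb1 at 6.65 and 6.61, and the 5 highest Ltbp2 libraries have adipocyte sums of at least 581.

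By Pearson's r of log2 CPM over the 24 libraries, the genes most like each member differed between members. For Tgfb1 they were Fam129b (0.977), Anxa4 (0.969) and Src (0.969). Tgfbi was closest to Rab3il1 (0.961), Emr1 (0.952), which encodes the macrophage antigen F4/80, and Fxyd5 (0.947). Tgfb2 was closest to Zswim7 (0.927), Psmd7 (0.925) and Dok7 (0.915), the last a gene of the neuromuscular junction. For Tgfb3 they were Bex1 (0.933), B4galnt3 (0.916) and Npnt (0.899), and for Tgfbr1 Esd (0.892) and Slc6a6 (0.885). Tgfbr2 was closest to Syne3 (0.915), Erlin1 (0.914) and Cand1 (0.908), and Ltbp2 to Chdh (0.909), Csad (0.903) and Klhl2 (0.883). The nearest genes were less close for Inhba (Klf7, 0.873) and Fst (St8sia2, 0.769). The 24 libraries come from 8 groups of 3, so these values describe likeness of pattern and nothing further.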

How the data were processed

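The 24 libraries were polyA-selected, per the labels. Per the paper's methods, the authors quantified paired-end reads with kallisto against Ensembl mouse cDNA (GRCm39), summed transcripts to genes with tximport, kept genes that exceeded 1 CPM in 3 or more samples, applied TMM scaling in edgeR, and deposited the resulting log2 CPM values, which carry a prior count of 2. They are normalized values, so no count model was fitted. The prior was subtracted to return to linear CPM, and levels between genes were divided by the length of the GENCODE canonical transcript. The file has 14160 rows, of which the 1 without a symbol was left out. The depth of each library is not in the file, and the mean effective library size of 25149682 reads was read from the value at a count of 0.

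Groups were compared with limma 3.58.1 (R 4.3.3), with 1 coefficient per group over all 24 libraries, a variance trend, 2-sided tests and Benjamini-Hochberg adjustment over 14159 genes. The study used voom on counts. Here the trend stands in for it. Summaries used Python 3.11.15, pandas 2.3.3 and matplotlib 3.10.9. The script was tested on simulated data. Groups came from the labels, which give no batch. The methods call the 24 samples independent without tying each to an animal, so p-values measure the spread between these samples. Members and lists were chosen with earlier results of these data known. All 10 members are named, with up to 3 called genes per pathway list and comparison, and up to 3 genes of highest Pearson's r with each member. Some genes that this rule names are not reported here. Alternatives were log2(CPM + 1), a filter at a mean log2 CPM of 1, libraries scaled to equal totals, library weights, compared groups only, a replicate block and leaving out each library. Leaving out both libraries that stand apart was chosen after seeing the data. Residuals of same-numbered libraries correlated at over 0.1 in all 3 pairs (0.105, 0.532 and 0.439) only between the PE-treated strains. The block also called 0 members there. The residuals of 3 libraries in a group sum to 0, so the 3 values are not independent. They cannot show that the numbers pair samples. Promoter windows are RefSeq's on GRCm38.p6, and gene positions GENCODE's on GRCm39.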

Additional observations from a re-analysis of the deposited data

Results flagged for a closer look

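For 4 results, every library of one strain moved in one direction from the mean of the reference group and every library of the other strain moved in the opposite direction. In each, limma's test of the strain difference did not pass the threshold, with an adjusted p near 1. The rule takes no account of the spread among the reference libraries, and the share of all genes that meet it is not given here. Between Saline and uninjured muscle, Tgfb2 changed by 0.20 in B6 mice and by -0.31 in MRL mice, a difference of -0.51 (SE 0.48, limma adjusted p = 1.0). Between ECM and Saline, Tgfbr1 changed by -0.27 in B6 mice and by 0.14 in MRL mice, a difference of 0.41 (SE 0.34, limma adjusted p = 1.0). Between PE and ECM, Ltbp2 changed by -0.74 in B6 mice and by 2.11 in MRL mice, a difference of 2.86 (SE 1.52, limma adjusted p = 0.997). Between PE and ECM, Smad7 changed by 0.17 in B6 mice and by -0.57 in MRL mice, a difference of -0.74 (SE 0.43, limma adjusted p = 0.997).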

How the results depend on the processing

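Of 53 fold changes of members recomputed under the alternatives, 749 values in all, 671 kept their direction and side of the threshold, 9 lost the call, 67 gained it and 2 turned in direction, Smad7 for PE against uninjured in B6 mice with equal totals (0.19) and Ltbp2 for PE against ECM in B6 mice, which ran from -1.49 to 0.065 as each library was left out, the latter without replicate 3 of the ECM group. Over all 220 fold changes of members, 88 turned under at least 1 alternative, and 0 of the 88 had an unadjusted p under 0.05 by limma over all libraries. The most calls were gained with library weights, which gave replicate 2 of PE-treated MRL mice a weight of 0.094.
With weights the members called were 3 for Saline against uninjured, 1 for ECM against uninjured, 3 for PE against Saline and 4 for PE against ECM in B6 mice, 2 for PE against Saline and 4 for PE against ECM in MRL mice, 2 between strains with Saline and 7 with PE, and 3, 1 and 1 for the strain difference of PE against uninjured, Saline and ECM. In the same order the shares of all genes called were 7.6%, 17.5%, 24.7%, 26.3%, 19.9%, 14.6%, 16.3%, 45.7%, 21.2%, 13.5% and 7.15%. Other pathway genes called between PE and uninjured muscle numbered 53 in B6 and 11 in MRL mice, against 54.8% and 16.5% of all genes.
The filter gave 1 call for PE against ECM in MRL mice, and equal totals gave 1 there and 2 for PE against uninjured in MRL mice. With equal totals the shares of all genes called were 5.06% and 14.7%. The share with the filter is not given here. Equal totals moved the median gene by 0.41 in B6 and 0.40 in MRL mice for PE against uninjured.
Compared groups only gave 1 for ECM against uninjured in B6 mice and 0 for PE against uninjured in MRL mice, with 0 other pathway genes there. In the same order 6.31% and 0.0% of all genes were called. The replicate block, whose numbers are not shown to pair samples, gave 0 for PE against uninjured and 1 for PE against ECM in MRL mice. It called 0 other pathway genes for the former and changed no other count of members by over 1.5 times. Of all genes, the block called 0.0636% between PE and uninjured MRL mice and 0.784% between PE and ECM.
Without both libraries that stand apart, the members called were 2 for Saline against uninjured, 1 for ECM against uninjured, 1 for PE against Saline and 2 for PE against ECM in B6 mice, 0 for PE against uninjured in MRL mice, 1 between strains with Saline and 5 with PE, and 2 and 1 for the strain difference of PE against uninjured and ECM. In the same order the shares of all genes called were 10.1%, 6.15%, 10.8%, 12.9%, 0.0%, 8.31%, 27.3%, 11% and 1.99%. Other pathway genes then numbered 36 in B6 and 0 in MRL mice, against 37.9% and 0.0% of all genes.
Leaving out 1 library at a time, the count of members for PE against uninjured was 1 to 3 in B6 and 0 to 2 in MRL mice, between strains 0 to 4 with PE and 0 to 1 with Saline, 0 to 1 for PE against ECM in MRL mice and for PE against Saline and Saline against uninjured in B6 mice, and 0 to 2, 0 to 1 and 0 to 1 for the strain difference of PE against uninjured, Saline and ECM. Shares of all genes in the leave-out fits are given above only without replicate 2 of PE-treated MRL or saline-treated B6 mice. Other pathway genes went from 3 to 19 in B6 and from 0 to 19 in MRL mice. The cause of these changes was not tested.
With 3 libraries a group the SE of a difference was 0.73 for Fst and 0.24 for Tgfbr1 on the log2 scale, so that the smallest detectable change differed between members.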
